A study of Mus musculus with 11 samples.

Results

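The genes that cut the extracellular matrix, and the inhibitors that hold those enzymes in check, were followed through primary myoblasts of 2 genotypes and 2 oxygen levels. The set holds 10 genes, chosen by symbol: the inhibitors Timp1, Timp2 and Timp3, the matrix metalloproteinases Mmp2, Mmp11, Mmp14 and Mmp15, the secreted proteases Adamts1 and Adamts5, and Plau, which encodes urokinase. All 10 were found among the 22104 genes listed, and all 10 passed the minimum level for testing, as did 14729 genes in all. Myoblasts are the dividing precursors of skeletal muscle fibres, and these came from the tibialis anterior muscle of C57BL/6 mice about 8 weeks old. The 4 groups were Bmal1-/- cells kept for 6 h at 1% oxygen (hypoxia, 3 libraries), Bmal1-/- cells at 21% oxygen (normoxia, 3 libraries), wild-type cells in hypoxia (3 libraries) and wild-type cells in normoxia (2 libraries). Culture medium for all groups was Ham's F-10 plus 20% serum and bFGF at 2.5 ng/ml, and no tissue-restricted driver is named for the deletion. Bmal1, listed under its symbol Arntl, pairs with Clock to drive circadian transcription from E-boxes. Whether replicates came from separate mice or cultures is not given in the sources used here, so p-values measure only the spread between these libraries.

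Metalloproteinases use a zinc ion to cut collagens and other matrix proteins, and they are made as inactive precursors. TIMPs are small secreted proteins that plug the active site, and Timp2 has the added role of bridging Mmp14 to the precursor of Mmp2, which Mmp14 then activates. Urokinase turns plasminogen into plasmin, a broad protease. Migration, fusion and repair of muscle cells all involve remodelling of the matrix around them, and mice without urokinase repair injured muscle poorly.

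Total reads assigned to genes were 18707697 to 33613328 per library, and every hypoxia library was deeper than every normoxia library. Arntl, the deleted gene, had normalized counts of 128, 134.4 and 128.1 in knockout hypoxia and 109.2, 117.4 and 98.78 in knockout normoxia. Its counts were 325, 327.5 and 321.8 in the hypoxic wild-type libraries, and 264.5 and 267.1 in the normoxic ones. Each knockout library was thus below each wild-type library, with reads still assigned to the gene. Myoblast markers such as Myod1, Pax7 and Des were detected in all libraries, with a summed level over 8 genes of 48518 to 55801. Of the endothelial markers, Cdh5, Emcn, Tie1 and Cldn5 were under 10 in every library, and of the leukocyte markers Itgam and Lyz2 were under 10 and Ptprc, Adgre1 and Tyrobp were not listed. The other endothelial markers were low but detected, with highest counts of 30.4 for Vwf, 28.8 for Tek, 25.0 for Pecam1 and 14.8 for Kdr. So were the other leukocyte markers, at up to 34.9 for Cd14, 32.6 for Cd68 and 17.1 for Csf1r. In bulk RNA of this kind, fewer cells of a type and less RNA per cell cannot be told apart.

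On GRCm38, in the GENCODE M21 annotation, the 10 are protein-coding genes on 6 chromosomes. Timp1 lies at chrX:20870166-20874735 within the span of Syn1, which is on the opposite strand, and Timp3 at chr10:86300372-86349506, overlapping Syn3. Mmp14 lies at chr14:54431612-54445364 and Plau at chr14:20836660-20843385. Adamts1 (chr16:85793827-85803113) and Adamts5 (chr16:85856173-85901828) are neighbours on the minus strand of 1 chromosome. Timp2 is at chr11:118301069-118355740, Mmp2 at chr8:92827291-92853420, Mmp15 at chr8:95352268-95375080 and Mmp11 at chr10:75923222-75936496.

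Per kb of exon, Timp1 was the most abundant of the 10 transcripts in each group, followed by Plau, Timp2, Mmp2, Mmp14 and Mmp11 in that order. Its mean level per kb was 6334 in knockout hypoxia, 6582 in knockout normoxia, 10639 in wild-type hypoxia and 10061 in wild-type normoxia. The library ranges of neighbours did not overlap anywhere among these 6. Timp3 changed place with genotype: it was ninth of 10 in both knockout groups, at 33.0 and 29.1 counts per kb in hypoxia and normoxia, and seventh in both wild-type groups, at 96.4 and 83.9. Adamts1 and Mmp15 lay close together at 47.5 to 65.0 counts per kb, and their ranges overlapped in both normoxia groups. Adamts5 was the lowest throughout, at 6.95 to 11.5 counts per kb as group means. It rested on 68 to 140 reads per library, for which counting error alone is 8.45% to 12.1%, whereas Timp1 rested on 4788 to 14088 reads.

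**Figure D1:**
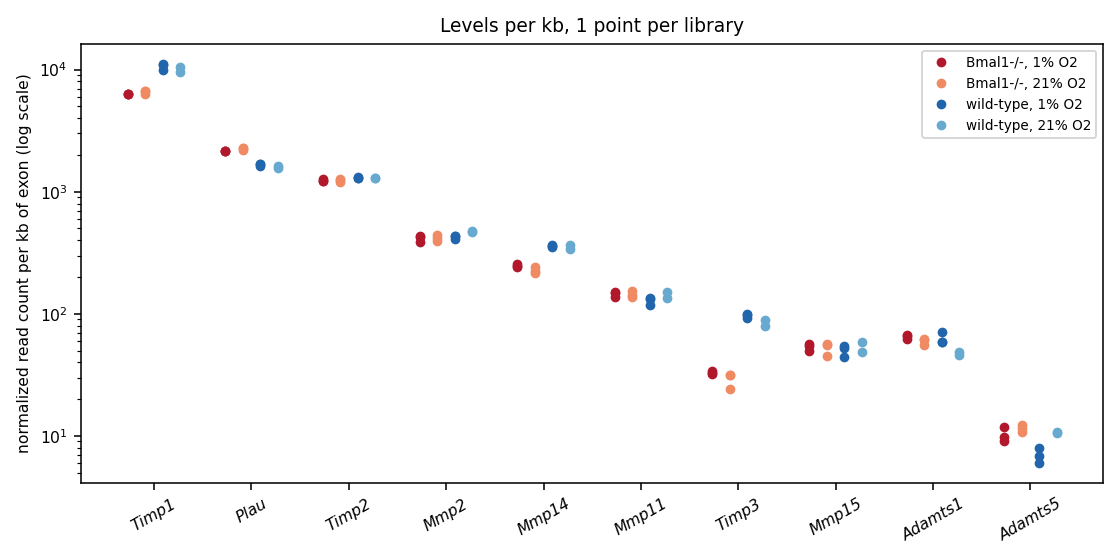
Normalized read count per kb of exon (log scale) for the 10 genes, 1 point per library, coloured by genotype and oxygen and ordered by the wild-type normoxia mean. Timp1 stands highest and Adamts5 lowest in each group, and the Timp3 points of the Bmal1-/- libraries lie below those of the wild-type libraries.

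Loss of Bmal1 went with lower Timp3, Timp1 and Mmp14 and with higher Plau at both oxygen levels. In normoxia 4 of the 10 genes were called by limma at an adjusted p under 0.05, with 1 higher and 3 lower, beside 9.09% of all tested genes (3.44% higher, 5.66% lower). In hypoxia 5 of the 10 were called, with 2 higher and 3 lower, beside 8.95% of all tested genes (3.33% higher, 5.61% lower). The added gene in hypoxia was Adamts5. The 10 genes were chosen with earlier results of these data known, so these counts are not a test of the set. The median log2 change over the 10 genes was -0.05 in normoxia and 0.01 in hypoxia, and over all tested genes it was below 0.01 in size in both, so the set did not move as 1 block. The direction of the genotype change was the same at both oxygen levels for 9 of the 10, Mmp15 being the exception.

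Timp3, an inhibitor that binds to the matrix itself and also blocks Adam17 and the aggrecan-cutting Adamts enzymes, showed the widest genotype gap of the 10. Its normalized counts were 266.7, 277.9 and 261.4 in knockout hypoxia, against 789.1, 752.1 and 814.6 in wild-type hypoxia. In normoxia they were 256.9, 197.4 and 256.2 in knockout cells, against 647.8 and 719.2 in wild-type cells. The highest knockout library thus held less than any wild-type library by a wide margin. Timp3 was 2.92-fold lower in knockout than in wild-type cells in hypoxia (log2 change -1.54, SE 0.10, adjusted p = 2.07e-07). In normoxia it was 2.90-fold lower in knockout cells (-1.53, SE 0.11, adjusted p = 9.04e-07).

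Timp1, a soluble inhibitor of most secreted metalloproteinases, had counts of 5622, 5632 and 5620 in knockout hypoxia, against 8833, 9902 and 9608 in wild-type hypoxia. In normoxia its counts were 5942, 5982 and 5610 in knockout cells, against 9400 and 8468 in wild-type cells. The groups did not overlap at either oxygen level. Timp1 was 1.68-fold lower in knockout than in wild-type cells in hypoxia (log2 change -0.75, SE 0.05, adjusted p = 3.90e-07). In normoxia it was 1.53-fold lower in knockout cells (-0.61, SE 0.06, adjusted p = 8.59e-06). The 3 knockout hypoxia libraries differed by 0.117% (coefficient of variation), less than the counting error of at least 0.843%, so that SD understates the error of the group.

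Timp2 behaved otherwise. Its means in knockout cells were 4840 ± 124.5 in hypoxia and 4852 ± 145.5 in normoxia (SD, n = 3 and 3). In wild-type cells they were 5035 ± 52.2 in hypoxia and 5077 ± 1.20 in normoxia (SD, n = 3 and 2). The 2 wild-type normoxia libraries differed by 0.0236% (coefficient of variation). That is less than the counting error of at least 1.19%, so their SD understates the error. Each knockout library was below each wild-type library at the same oxygen level, yet the gap missed the threshold in hypoxia (log2 change -0.06, 95% interval -0.14 to 0.02, adjusted p = 0.427) and in normoxia (-0.07, interval -0.15 to 0.02, adjusted p = 0.367). Those intervals bound any fall of Timp2 well short of the changes of Timp1 and Timp3. The fourth family member, Timp4, was listed at 1.91 counts or fewer in every library and was not tested.

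Since the TIMPs changed unequally, their mix differed between genotypes. Timp1 made up 83.2% ± 0.352 of the summed TIMP level per kb in knockout hypoxia and 83.8% ± 0.811 in knockout normoxia, against 88.4% ± 0.617 in wild-type hypoxia and 87.9% ± 0.833 in wild-type normoxia. Timp2 took 16.3% and 15.9% in the knockout groups in hypoxia and normoxia, against 10.8% and 11.4% in the wild-type groups. Timp3 was a small share in all cells, at 0.434% and 0.371% in the knockout groups and 0.804% and 0.736% in the wild-type groups. Per kb, the ratio of Timp3 to Timp2 was 0.0266 ± 0.00111 in knockout hypoxia and 0.0234 ± 0.00364 in knockout normoxia, against 0.0746 ± 0.00234 in wild-type hypoxia and 0.0644 ± 0.00477 in wild-type normoxia. These shares and ratios are of transcript levels and carry no test.

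Mmp14 is a collagenase anchored in the cell membrane, known as the main activator of Mmp2 at the cell surface. Its counts were 1435, 1455 and 1534 in knockout hypoxia, against 2139, 2095 and 2174 in wild-type hypoxia. In normoxia they were 1339, 1292 and 1432 in knockout cells, against 2026 and 2199 in wild-type cells. The lowest wild-type library lay above the highest knockout library. Mmp14 was 1.45-fold lower in knockout than in wild-type cells in hypoxia (log2 change -0.53, SE 0.05, adjusted p = 1.31e-05). In normoxia it was 1.56-fold lower in knockout cells (-0.64, SE 0.06, adjusted p = 8.59e-06). Per kb, the ratio of Mmp14 to Timp2 was 0.199 ± 0.0114 in knockout hypoxia and 0.183 ± 0.00875 in knockout normoxia, against 0.277 ± 0.00284 in wild-type hypoxia and 0.272 ± 0.0158 in wild-type normoxia.

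The promoter sequences of these 3 genes, which were lower together in knockout cells, are shown for the short motifs they hold. They are bases before the RefSeq transcription start on GRCm38.p6, all on the plus strand. Those of Timp1 and Mmp14 reach that start, and those of Timp3 stop short of it, at the first start in GENCODE. They lie at chrX:20869916-20870165 for Timp1, chr10:86300162-86300371 for Timp3 and chr14:54431348-54431597 for Mmp14. Capitals mark ACGTG, the only form of the hypoxia response core searched, or CACGT where it lies on the other strand.
Timp1: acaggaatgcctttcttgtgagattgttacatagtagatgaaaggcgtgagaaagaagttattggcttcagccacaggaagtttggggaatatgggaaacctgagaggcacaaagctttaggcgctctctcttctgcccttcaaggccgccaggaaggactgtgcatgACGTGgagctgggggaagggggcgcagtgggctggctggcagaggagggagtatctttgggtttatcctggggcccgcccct
Timp3: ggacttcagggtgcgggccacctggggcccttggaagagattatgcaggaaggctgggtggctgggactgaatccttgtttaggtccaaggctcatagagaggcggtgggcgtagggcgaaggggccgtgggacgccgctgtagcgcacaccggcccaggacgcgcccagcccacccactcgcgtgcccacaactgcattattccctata
Mmp14: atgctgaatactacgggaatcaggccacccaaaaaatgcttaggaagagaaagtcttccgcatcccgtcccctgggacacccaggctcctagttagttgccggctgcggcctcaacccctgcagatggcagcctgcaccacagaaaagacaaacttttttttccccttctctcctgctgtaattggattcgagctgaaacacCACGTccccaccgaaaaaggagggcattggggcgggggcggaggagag

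Promoter windows of 300 bases, with 250 before the start and 50 after it, were given for 7 of the 10 genes. The core ACGTG, searched on both strands, was found in 2 of them, at base -82 from the start in Timp1 and at base -48 in Mmp14. It is held by 19.6% of 32851 promoter windows of the same length. The canonical E-box CACGTG, which contains that core on both strands, was in none of the 7 and is held by 7.15% of all windows. The AP-1 motif, TGACTCA or TGAGTCA, was also in none of the 7 and is held by 5.2% of all windows. Such matches describe the letters of these windows and say nothing about binding.

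The other metalloproteinases were not called for genotype. Mmp2, gelatinase A, had counts of 1308, 1450 and 1443 in knockout hypoxia, against 1452, 1388 and 1471 in wild-type hypoxia, and these ranges overlapped. In normoxia it had 1342, 1403 and 1485 in knockout cells, against 1595 and 1562 in wild-type cells, and these did not overlap. The genotype gap of Mmp2 did not pass the threshold in hypoxia (log2 change -0.04, 95% interval -0.16 to 0.08, adjusted p = 0.777) or in normoxia (-0.16, interval -0.30 to -0.03, adjusted p = 0.121). Mmp11, stromelysin 3, which is activated inside the cell by furin, averaged 402.4 ± 19.7 and 401.4 ± 25.4 in the knockout groups in hypoxia and normoxia, against 358.8 ± 24.7 and 394.7 ± 34.3 in the wild-type groups. Mmp15, another membrane-anchored enzyme, averaged 287 ± 19.4 and 282.9 ± 33.3 in the knockout groups, against 271.9 ± 29.2 and 289.3 ± 39.7 in the wild-type groups. The Mmp11 libraries did not overlap in hypoxia, where knockout cells had 380.2 to 417.8 counts and wild-type cells 330.4 to 375.5, but did in normoxia, and those of Mmp15 overlapped at both oxygen levels. Neither gene was called at either oxygen level, with 95% intervals for the log2 change of -0.01 to 0.34 in hypoxia and -0.17 to 0.22 in normoxia for Mmp11, and of -0.16 to 0.33 and -0.31 to 0.24 for Mmp15. Mmp11 shares 155 exon bases with Chchd10 on the opposite strand, which was at 38.73 to 72.72 counts, and Timp3 shares 1733 with Syn3, which reached 10.88 counts at most. The strand setting of the counting is not given in the sources used here.

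Urokinase moved against the 3 fallen genes. Plau counts were 5051, 5096 and 5069 in knockout hypoxia, against 3962, 3961 and 3847 in wild-type hypoxia. In normoxia they were 5373, 5403 and 5199 in knockout cells, against 3838 and 3731 in wild-type cells. All knockout libraries were above all wild-type libraries. Plau was 1.29-fold higher in knockout than in wild-type cells in hypoxia (log2 change 0.37, SE 0.03, adjusted p = 1.01e-05). In normoxia it was 1.41-fold higher in knockout cells (0.49, SE 0.04, adjusted p = 2.50e-06). Plg, which encodes plasminogen, was at 1.08 counts or fewer in every library, so the transcript of its substrate was near absent from these cells.

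The 2 Adamts genes, whose proteins cut the proteoglycans versican and aggrecan, were less clear. Adamts5 had counts of 104.7, 127.1 and 98.39 in knockout hypoxia, against 64.81, 73.8 and 86.28 in wild-type hypoxia, and the ranges did not overlap. In hypoxia Adamts5 was thus 1.46-fold higher in knockout than in wild-type cells (log2 change 0.55, SE 0.14, adjusted p = 0.0221). The call did not survive the loss of knockout hypoxia replicate 2 (adjusted p = 0.11), wild-type hypoxia replicate 1 (0.0919) or wild-type hypoxia replicate 2 (0.0663), or a fit on only the 2 groups compared (0.0549). In normoxia Adamts5 had 115.4, 131.2 and 124.8 counts in knockout cells, against 113.5 and 115.3 in wild-type cells (log2 change 0.11, 95% interval -0.22 to 0.44, adjusted p = 0.722). Adamts1 averaged 344.8 ± 11.7 in knockout hypoxia, against 332.7 ± 36.3 in wild-type hypoxia, and 314.6 ± 18.9 in knockout normoxia, against 251.6 ± 9.06 in wild-type normoxia. The normoxia gap of Adamts1 came close to the threshold without passing it (log2 change 0.32, 95% interval 0.11 to 0.53, adjusted p = 0.0581).

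**Figure D2:**
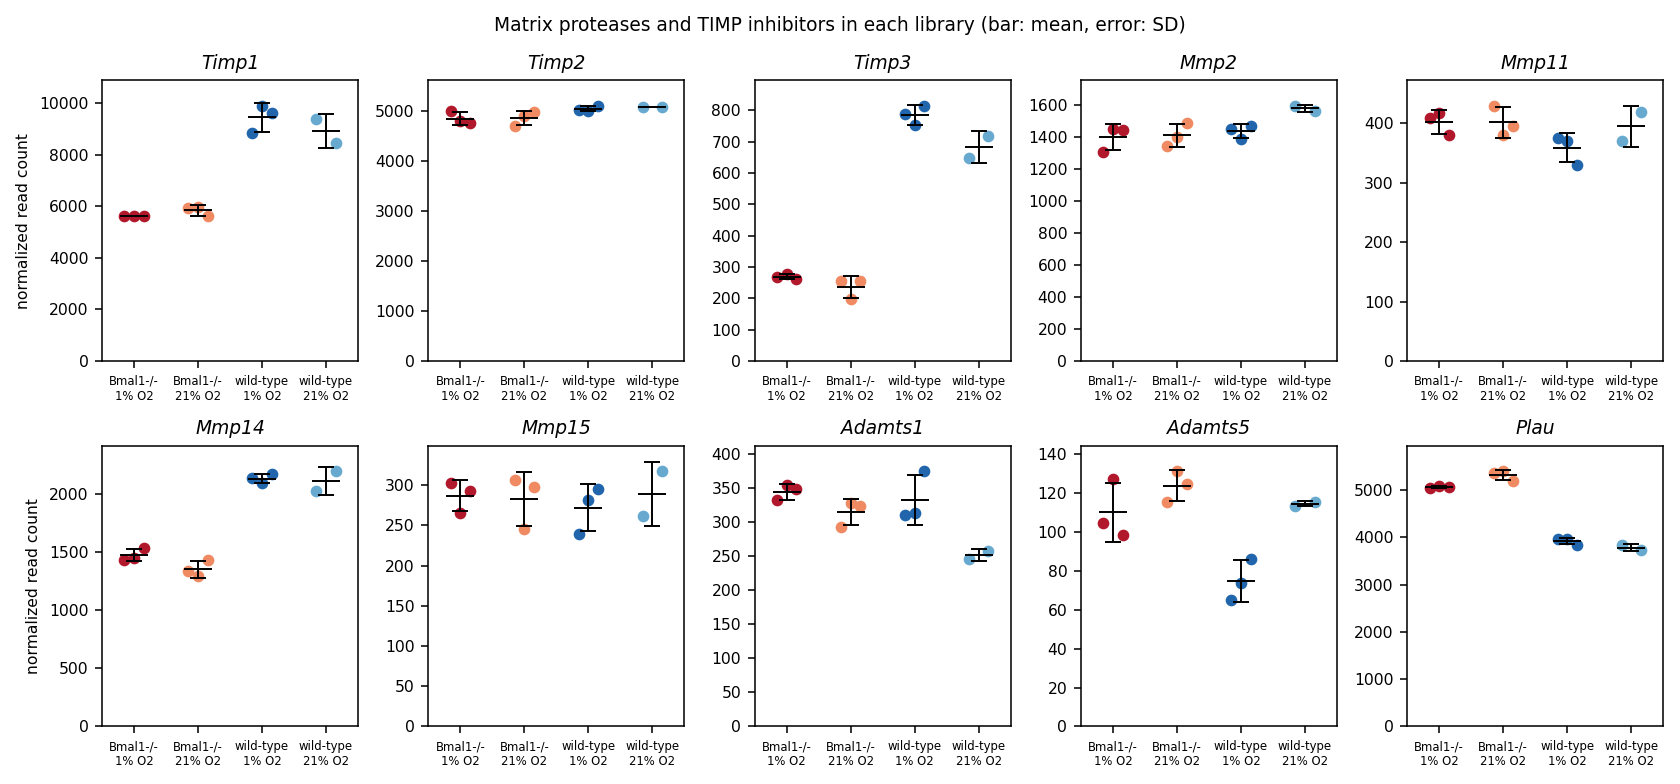
Normalized read counts of the 10 genes in each of the 11 libraries, in panels with their own axis from 0; points are libraries, bars the group means and error bars the SD. Timp1, Timp3 and Mmp14 are lower and Plau is higher in all Bmal1-/- libraries, while Timp2 lies between 4689 and 5095 counts throughout.

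Counting only whether the libraries of the genotypes overlapped, 8 of the 10 genes did not in normoxia, where 38.4% of all tested genes did not, and 7 of the 10 did not in hypoxia, where 26.3% did not. With 3 against 2 libraries such separation is common, and it is not a call.

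Other genes of matrix breakdown were counted in 4 lists that exclude the 10. Of their 68 tested genes, 6 rose and 20 fell in knockout cells in hypoxia (38.2% called), beside 8.95% of all tested genes. In normoxia 6 rose and 17 fell (33.8% called), beside 9.09% of all tested genes. These lists were chosen with earlier results of these data known, so the shares are not a test. Among the metalloproteinases, 15 of 19 listed genes were in the table and 8 were tested. In hypoxia 0 rose and 2 fell in knockout cells, Mmp3 (log2 change -1.11, adjusted p = 0.00545, with means of 22.6 counts in knockout and 51.1 counts in wild-type cells) and Mmp19 (-0.58, adjusted p = 0.0291). In normoxia 1 rose and 1 fell. The fallen gene was Mmp19 (-0.63, adjusted p = 0.0356), and the risen one was Mmp10 (0.93), at only 38.1 counts in knockout and 19.3 in wild-type cells and named after its values were seen. Mmp9, gelatinase B, was at 6.33 counts or fewer in every library and was not tested.

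Of the ADAM and ADAMTS genes, 24 of 34 were tested. In knockout against wild-type cells, 2 rose and 5 fell in hypoxia, while 2 rose and 4 fell in normoxia. Over all tested genes, 8.95% were called in hypoxia and 9.09% in normoxia. All changes in this paragraph are of knockout over wild-type cells. Adamts2, which trims the ends of collagen precursors, fell in hypoxia (log2 change -0.81) and normoxia (-0.86). Adamts12 fell at both oxygen levels as well (-0.62 and -0.69). Adamts6 fell in hypoxia (-0.44, adjusted p = 0.00231) and, just under the threshold, in normoxia (-0.30, adjusted p = 0.0499). Adamtsl3, which encodes an ADAMTS-like protein without protease activity, fell in hypoxia (-0.67). Adam12, a gene switched on in regenerating muscle, fell in hypoxia (-0.45) and normoxia (-0.69). Adamts7 rose in hypoxia (0.49, adjusted p = 0.0212) and normoxia (0.57, adjusted p = 0.0173).

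In the plasminogen system 9 of 15 listed genes were tested. In knockout against wild-type cells, 2 rose and 2 fell in hypoxia, while 1 rose and 2 fell in normoxia. Over all tested genes, 8.95% were called in hypoxia and 9.09% in normoxia. All changes in this paragraph are of knockout over wild-type cells. Plat, the tissue-type plasminogen activator, rose with Plau, to 623.4 ± 43.1 counts in knockout hypoxia, against 473.6 ± 55.6 in wild-type hypoxia (log2 change 0.40, adjusted p = 0.0224). In normoxia it was at 527.8 ± 66.8 in knockout cells, against 331.5 ± 2.17 in wild-type cells (0.66, adjusted p = 0.00196). That wild-type SD rests on 2 libraries, with 311 and 289 reads for Plat. Serpinb2, which encodes plasminogen activator inhibitor 2, fell at both oxygen levels, with log2 changes of -1.08 in hypoxia and -1.16 in normoxia. Lrp1, an endocytic receptor that clears protease and inhibitor complexes, fell in normoxia (-0.57, adjusted p = 0.00317). Anxa2, a surface receptor of plasminogen, fell slightly in hypoxia (-0.16, adjusted p = 0.0296), and S100a10, whose product pairs with that of Anxa2, rose slightly (0.17, adjusted p = 0.0329).

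Of 34 other inhibitors and processing enzymes, 27 were tested. In knockout against wild-type cells, 2 rose and 11 fell in hypoxia, while 2 rose and 10 fell in normoxia. Over all tested genes, 8.95% were called in hypoxia and 9.09% in normoxia. All changes in this paragraph are of knockout over wild-type cells. Tll1, a metalloproteinase of the Bmp1 family that processes collagen precursors, fell to 76.1 ± 6.04 counts in knockout hypoxia, against 235.6 ± 27.4 in wild-type hypoxia, with log2 changes of -1.61 there and -1.76 in normoxia. Pcolce, whose product enhances that processing, fell as well (-0.55 in hypoxia and -0.60 in normoxia). Htra1, a secreted serine protease, fell in hypoxia (-1.35) and normoxia (-1.53), and Sulf1, which strips sulfate from heparan sulfate chains, fell in hypoxia (-1.03) and normoxia (-1.07). Tfpi2, a serine protease inhibitor of the matrix, rose 2.44-fold in hypoxia (1.29, adjusted p = 3.95e-06) and 2.17-fold in normoxia (1.12, adjusted p = 4.40e-05). The median log2 change was -0.22 in hypoxia and -0.27 in normoxia over this list and 0.005 over all tested genes in both.

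**Figure D3:**
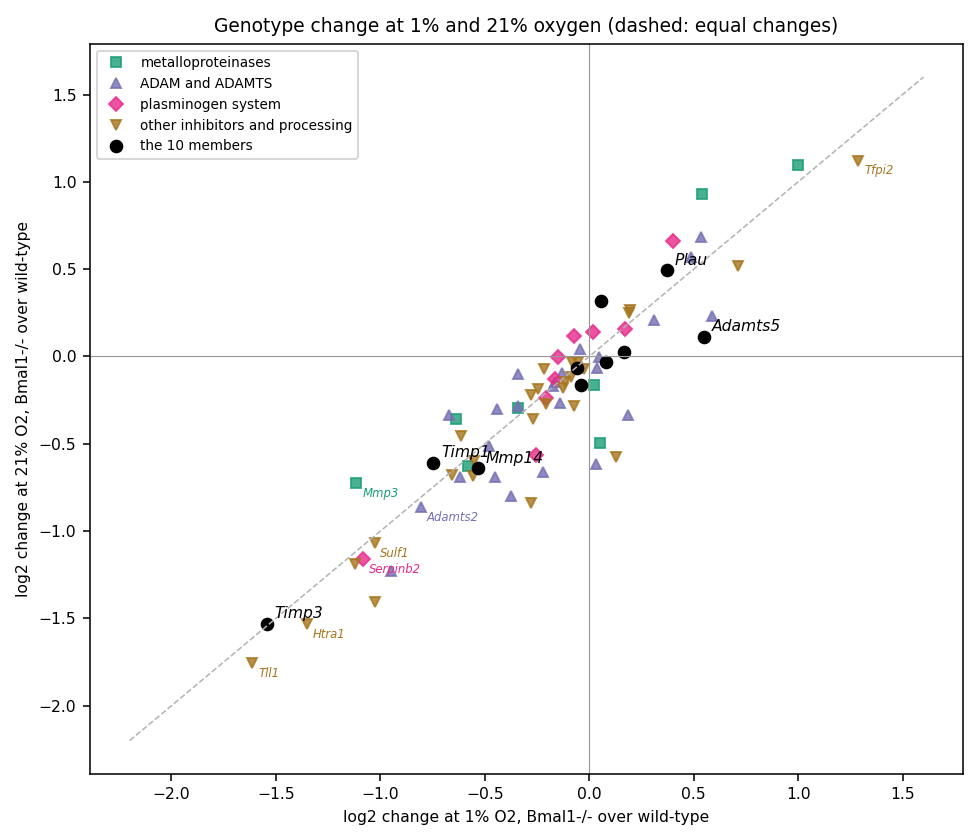
log2 change of Bmal1-/- over wild-type cells in hypoxia (horizontal axis) and in normoxia (vertical axis), 1 point per tested gene of the 10 and of the 4 lists of matrix genes; the dashed line marks equal changes. Timp3, Htra1 and Tll1 lie at the lower left and Tfpi2 at the upper right, each near the line.

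Most listed markers of connective tissue and vessel wall cells were lower in knockout cells, like the fallen genes. Of 11 fibroblast and fibro-adipogenic markers, 0 rose and 9 fell in knockout cells in hypoxia, and 0 rose and 8 fell in normoxia. Over all tested genes, 3.33% rose and 5.61% fell in hypoxia, and 3.44% rose and 5.66% fell in normoxia. Fbln1 was not called at either oxygen level, with log2 changes of 0.15 in hypoxia and -0.01 in normoxia. None of the 11 was at 0 in any library, and Pdgfra had 299.7, 292.4 and 325.9 counts in knockout hypoxia, against 716.7, 745 and 785.9 in wild-type hypoxia. The summed level of the 11 was 19697 to 20849 in knockout hypoxia and 17101 to 18176 in knockout normoxia. In the wild-type groups it was 26635 to 27610 in hypoxia and 24109 to 27088 in normoxia. Col3a1 made up most of these sums, with group means of 13073, 11748, 15722 and 15146 in the same order. Of 7 smooth muscle and pericyte markers, 0 rose and 5 fell at each oxygen level, namely Pdgfrb, Cspg4, Cnn1, Tagln and Acta2. Rgs5 was higher without a call (log2 change 0.12 in hypoxia and 0.24 in normoxia). Myh11, also not called, changed by -0.64 in hypoxia and 0.70 in normoxia, at group means of 10.7 counts or fewer. The 7 summed to 28006 to 28260 counts in knockout hypoxia and 31520 to 31799 in knockout normoxia. In the wild-type groups they summed to 33857 to 34698 in hypoxia and 37774 to 39313 in normoxia. Acta2 made up most of these sums, with group means of 24231, 27449, 27533 and 31505 in the same order. Of 12 muscle differentiation markers, 9 rose and 0 fell at each oxygen level, with sums of 68004 to 80509 in the knockout groups, against 39996 to 55809 in the wild-type groups. The part of these markers in the changes of Timp3, Timp1, Mmp14 and Plau was not tested.

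**Figure D4:**
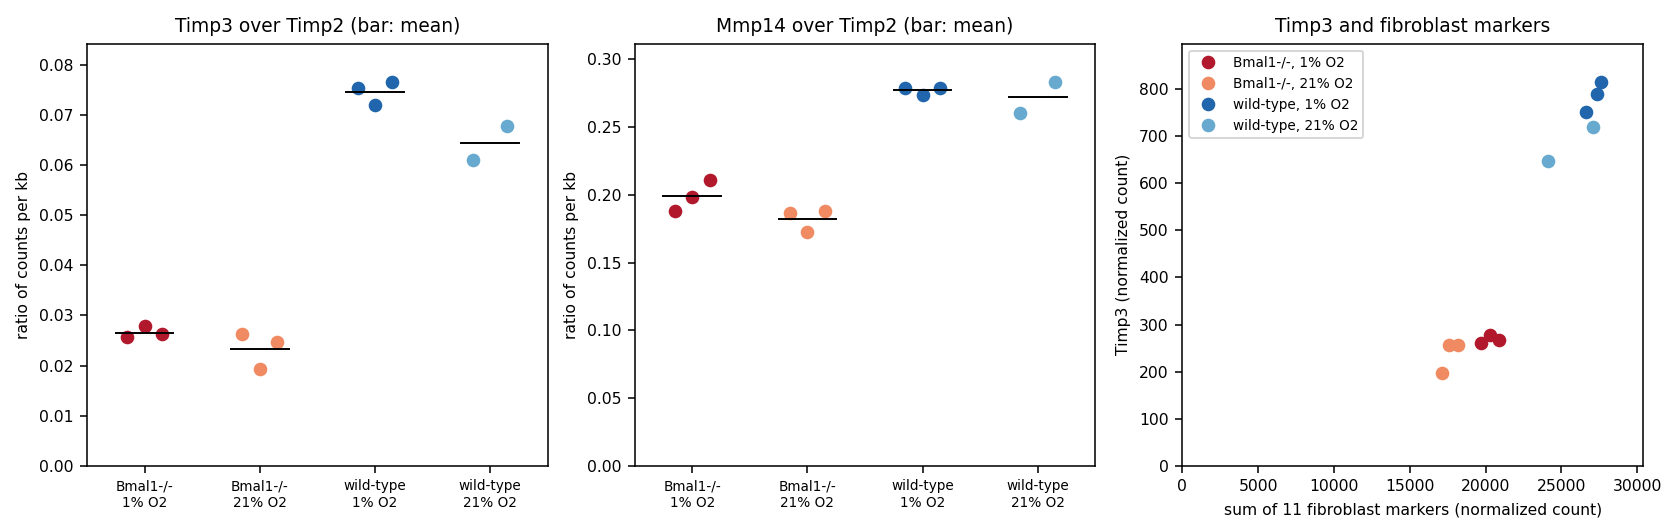
Left and middle, ratio per kb of Timp3 to Timp2 and of Mmp14 to Timp2 in each library, with group means as bars. Right, Timp3 count against the summed count of 11 fibroblast markers in each library, where Bmal1-/- libraries lie lower on both axes than wild-type libraries.

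The genes whose log2 values ran most like those of the called members over the 11 libraries were sought among 11468 tested genes with a mean of at least 50. They were Aldh1a3, a retinoic acid-making enzyme, for Timp3 (Pearson r = 0.993, Spearman rho = 0.955), and Inhba, an activin subunit, for Timp1 (r = 0.990, rho = 0.791). Close behind Aldh1a3 for Timp3 were Pdgfra (r = 0.992) and Pdgfrb (r = 0.991). Ptgs2 and Rai14 had the same rounded r with Timp1 and a higher rho (0.873 and 0.900). For Mmp14 it was Pdgfrb, a growth factor receptor (r = 0.996, rho = 0.973), and for Adamts5 it was E2f2, a cell cycle transcription factor (r = 0.961, rho = 0.945). Adamts1 was matched by Zbtb40 (r = 0.945, rho = 0.909). For Plau it was Rps15a-ps7, a ribosomal protein pseudogene whose counts may include reads of near-identical copies (r = 0.988, rho = 0.882). Col19a1 and Rps13-ps1 followed for Plau, both at r = 0.986. The libraries fall into 2 genotypes, which any gene that differs between them shares, so these values are descriptions without a test.

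Hypoxia for 6 h gave no called change among the 10 genes within either genotype. In knockout cells limma called 0 of the 10, beside 4.09% of all tested genes (3.15% higher, 0.937% lower), and 1 had an unadjusted p under 0.05. In wild-type cells it called 0 of the 10, beside 2.17% of all tested genes (1.7% higher, 0.468% lower), and 3 had an unadjusted p under 0.05. edgeR and DESeq2 also called 0 of the 10 in each genotype. The median size of the log2 change, sign ignored, was 0.06 over the 10 and 0.11 over all tested genes in knockout cells. In wild-type cells it was 0.11 over both, so the 10 moved about as much as other genes there.

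Adamts1 and Adamts5 came closest, in opposite directions. Adamts1 had counts of 310.7, 312.8 and 374.7 in wild-type hypoxia, against 245.2 and 258 in wild-type normoxia, without overlap (log2 change 0.40, SE 0.10, adjusted p = 0.0538). In knockout cells it had 331.7, 354.2 and 348.5 in hypoxia, against 292.9, 327.3 and 323.5 in normoxia (0.13, 95% interval -0.05 to 0.32, adjusted p = 0.468). Adamts5 was lower in each wild-type hypoxia library than in each wild-type normoxia library (log2 change -0.61, SE 0.15, adjusted p = 0.0597). In knockout cells its ranges overlapped (-0.17, 95% interval -0.47 to 0.12, adjusted p = 0.563).

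Averaging the hypoxia effect over both genotypes, a comparison chosen after seeing the data, gave called changes for these genes alone among the 10, with 1 higher and 1 lower, beside 7.45% of all tested genes (4.89% higher, 2.56% lower). Adamts1 rose 1.20-fold (log2 change 0.26, SE 0.07, adjusted p = 0.0254), and Adamts5 fell 1.31-fold (-0.39, SE 0.10, adjusted p = 0.0342). Both calls are fragile: that of Adamts1 was lost with any of 6 libraries left out (adjusted p up to 0.0932). That of Adamts5 was lost with any of 8 left out (up to 0.104), without the filter on low values (0.0567) and by DESeq2 (0.0648). The deeper sequencing of all hypoxia libraries cannot be told apart from oxygen.

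Timp3 came next, with a mean change short of the threshold (log2 change 0.20, 95% interval 0.04 to 0.35, adjusted p = 0.124). The intervals for Timp2 (-0.07 to 0.05), Timp1 (-0.07 to 0.09) and Plau (-0.07 to 0.05) hold any common effect of hypoxia on them to a small size. Mmp14 was higher in each knockout hypoxia library than in each knockout normoxia library but was not called (log2 change 0.12, 95% interval 0.01 to 0.24, adjusted p = 0.235). Without overlap between oxygen levels were 4 of the 10 genes in knockout cells, where 22.6% of all tested genes did not overlap, and 5 of the 10 in wild-type cells, where 29.8% did not.

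In the 4 lists of other matrix genes together, oxygen gave 2 calls among 68 tested genes in knockout cells (2.94%) and 2 among 68 in wild-type cells (2.94%). These shares are near the 4.09% and 2.17% over all tested genes, so the calls describe single genes. Bsg, known as an inducer of metalloproteinases, rose in knockout cells to 7394, 6657 and 7140 counts in hypoxia, against 5633, 5798 and 5600 in normoxia (log2 change 0.31, adjusted p = 0.00929). It rose in wild-type cells to 8217, 6869 and 6963 counts in hypoxia, against 5874 and 5729 in normoxia (0.34, adjusted p = 0.0178). Ctsb, a lysosomal cysteine protease, fell in knockout cells (-0.21, adjusted p = 0.0126), and Plat rose in wild-type cells (0.51, adjusted p = 0.0302). For the mean of both genotypes, the comparison chosen after seeing the data, 5 of the 68 were called (7.35%), beside 7.45% of all tested genes. Among them were Adam17, which sheds membrane proteins (log2 change 0.17), and Anxa2 (0.13).

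Whether the oxygen effect differed between genotypes was tested directly. limma called 0 of the 10 genes for the difference, beside 0.00679% of all tested genes (1 of 14729, with 784 at an unadjusted p under 0.05), and edgeR and DESeq2 also called 0 of the 10. Plau had the smallest unadjusted p of the 10, at 0.0361, with a difference of -0.12 between the log2 changes of knockout and wild-type cells (adjusted p = 0.917). The difference of Adamts5 was 0.44 (95% interval -0.005 to 0.88) and that of Adamts1 was -0.26 (interval -0.54 to 0.02). For Timp3 the difference was -0.01 with a 95% interval of -0.32 to 0.30, so differences of those sizes remain compatible with these data.

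**Figure D5:**
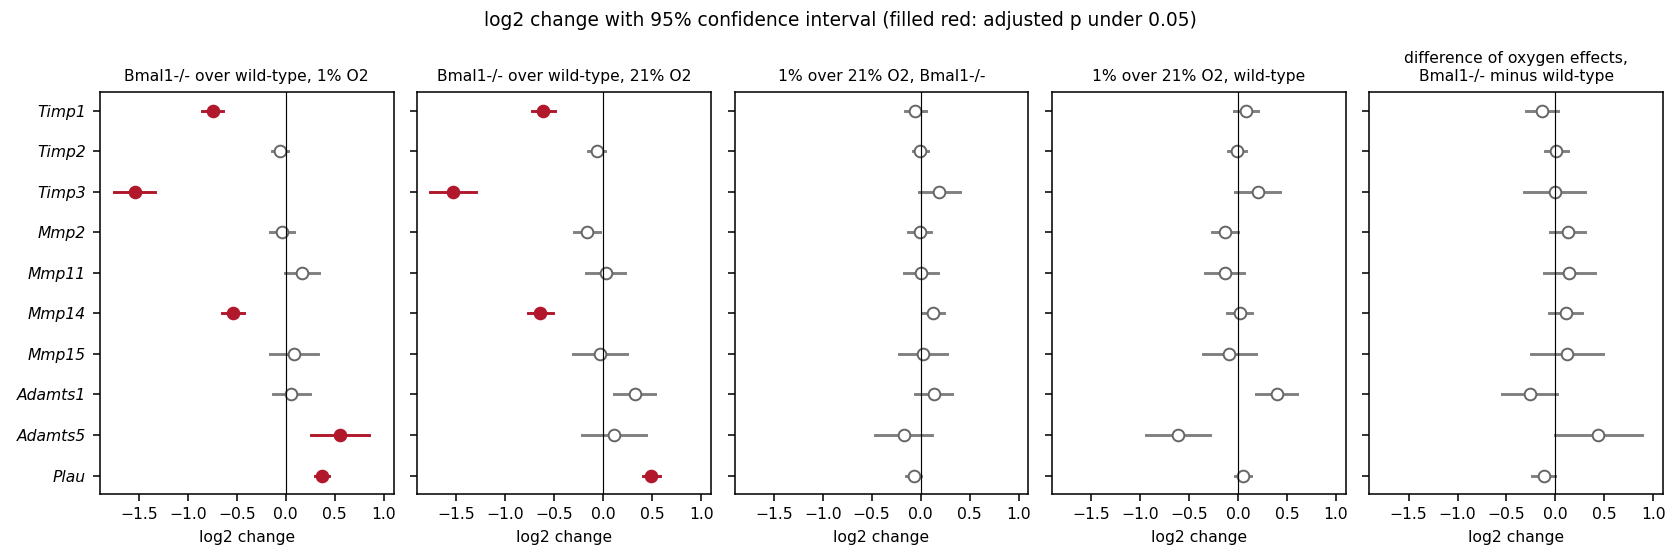
log2 change with its 95% confidence interval for the 10 genes in 5 comparisons, namely genotype in hypoxia, genotype in normoxia, hypoxia in Bmal1-/- cells, hypoxia in wild-type cells, and the difference between these oxygen effects. Filled red points (adjusted p under 0.05) appear in the genotype panels alone, for 5 genes in hypoxia and 4 in normoxia.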

How the data were processed

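Total RNA was sequenced from 11 libraries, made from 1 µg of RNA with the TruSeq Stranded Total RNA kit, per the labels' protocols. The submitters' processing notes name bcl2fastq, STAR, Picard, HTSeq, RSEM, DESeq2 and the mm10 build, with no versions and no statement of which tool made the table. What the authors deposited is a signal per gene, namely reads scaled by a single factor for each library. Undoing that scaling returned whole reads (tolerance 0.01) for 100% of entries. Symbols were found for 21805 identifiers and not for 299, and 0 columns were unused. Same-group libraries differed by a chi-square of 4.33 to 20.9 per degree of freedom, so none was a duplicate.

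Genes reaching 10 in no fewer than 2 libraries entered the test on log2(value + 1), a scale that understates changes of low genes, with limma 3.58.1 (variance trend, 4 groups, residual degrees of freedom 7) in R 4.3.3. P-values are two-sided and adjusted by Benjamini-Hochberg over all 14729 tested genes, called under 0.05. The words rose and fell mark called genes. Across genes, the SE of a genotype or oxygen log2 change had a median of 0.10 to 0.11. Alternatives were other pseudocounts and filters, TMM scaling, edgeR 4.0.16 and DESeq2 1.42.0 on the recovered counts, no trend, only the libraries compared, and each library left out. The fit was tested on simulated data.

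The members and lists were chosen with earlier results of these data known. Besides the members, up to 4 called genes of each list and comparison were named. They had the smallest adjusted p there and a mean of at least 50. For each called member the gene most correlated with it was also named, with near ties for Timp1, Timp3 and Plau. Levels per kb use the union of exons in GENCODE M21 (GRCm38). Intervals on reads cover counting error only. Promoters came from RefSeq (GRCm38.p6), and protein features were not analysed here. A result on 1 further gene of the lists is not reported here. No pairing of libraries is given by the labels.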

Additional observations from a re-analysis of the deposited data

How the results depend on the processing

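The genotype calls of Timp1, Timp3, Mmp14 and Plau held under all 20 alternatives at both oxygen levels. Over the settings that leave out no library, 516 values of the 10 genes kept direction and side of the threshold, 1 was called in addition (Adamts1 in wild-type hypoxia with a minimum of 50, adjusted p = 0.0448) and 3 lost their call. Counts of called genes for the oxygen effect were 200 in wild-type and 351 in knockout cells for limma without trend, against 320 and 602 with it, and 849 against 1339 for genotype in normoxia with only the libraries compared. For the difference of the hypoxia effects the count was 1, and it was 0 with a pseudocount of 5, a minimum of 50 or edgeR (777 at an unadjusted p under 0.05) and 5 with DESeq2 (523).

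With 1 library left out, counts ranged over 668 to 1355 for genotype in normoxia (lowest without wild-type normoxia replicate 2, and 778 without replicate 1), 161 to 320 for hypoxia in wild-type cells (161 and 187 without those libraries), 370 to 628 in knockout cells, 1 to 3 for the difference and 689 to 1075 for the mean of both genotypes. A wild-type normoxia group of 1 library was assumed to vary like the others. Adamts1 in normoxia was called without wild-type hypoxia replicate 3 (adjusted p = 0.0352), as was Adamts5 in wild-type hypoxia (0.0433).

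Signs turned only for uncalled log2 changes near 0. For genotype these were Mmp11 (-0.064 to 0.11) and Mmp15 (-0.17 to 0.11) in normoxia, and Mmp2 (-0.064 to 0.0099) and Mmp15 (-0.0082 to 0.14) in hypoxia. For oxygen they were Mmp14 (-0.042 to 0.076) and Mmp15 (-0.23 to 0.052) in wild-type cells, and Timp2 (-0.028 to 0.014), Mmp2 (-0.045 to 0.038), Mmp11 (-0.035 to 0.054) and Mmp15 (-0.075 to 0.086) in knockout cells. For the difference they were Timp2 (-0.016 to 0.026), Timp3 (-0.14 to 0.066) and Mmp15 (-0.027 to 0.25). For the mean of both genotypes they were Timp1 (-0.025 to 0.051), Timp2 (-0.020 to 0.0010), Mmp15 (-0.10 to 0.038) and Plau (-0.019 to 0.0012). The cause of these shifts was not tested. No paired analysis was possible because the labels give no numbers that link libraries of different groups. Depth limits Adamts5 most among the 10 genes, at 68 to 140 reads per library.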

Other observations

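Of 5 sex-linked transcripts 4 were tested, and limma called 0 higher and 0 lower for genotype at each oxygen level. With hypoxia, the Y-linked gene Kdm5d fell in knockout cells (log2 change -0.27, adjusted p = 0.0311). It also fell for the mean of both genotypes (-0.20, adjusted p = 0.0202). Ddx3y, a Y-linked gene, had 1581 to 1843 counts in each of the 11, and Xist had 0 in 9 of them and 6.25 or fewer in the others. The proliferation markers, 9 genes, rose in 3 and fell in 0 cases in knockout cells at each oxygen level, with sums of 48685 to 51580 in the knockout groups, against 44988 to 47016 in the wild-type groups. Of 8 myoblast markers 3 rose and 0 fell in hypoxia, and 2 rose and 0 fell in normoxia. Over all tested genes, 3.33% rose and 5.61% fell in hypoxia, and 3.44% rose and 5.66% fell in normoxia. Of 6 Schwann cell markers 3 were tested, with 1 higher and 1 lower in hypoxia and 0 higher and 1 lower in normoxia, and Sox10 and S100b were under 10 in every library. Of the endothelial markers 4 were tested and of the leukocyte markers 3, with none called by limma for genotype at either oxygen level. The matrix inhibitor Tfpi2 had 254.1, 276.1 and 275.7 counts in knockout hypoxia, against 102.9, 103.3 and 122.8 in wild-type hypoxia, a rise while Timp1 and Timp3 fell.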
